A study of Mus musculus with 6 samples.

Results

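Expression of the lysosome's own genes was compared between lungs of mice carrying an Scnn1b transgene and lungs of wild-type mice. The 34 genes, picked by name for their part in the organelle, were 20 acid hydrolases, 3 activator or lipid transfer proteins, 5 membrane proteins, 5 subunits or partners of the vacuolar proton pump, and Tfeb, a transcription factor of lysosomal genes. Each was taken at its brightest probe set among those with exactly 1 gene symbol, and 34 of 34 were found among the 19935 genes of the table. The array data comprised whole-lung total RNA of Scnn1b-Tg mice (Scnn1b-Transgenic in the labels, 3 arrays) and of wild-type mice (3 arrays), all on the C57BL/6 background. Age, sex, treatment and litter are not given in the labels, and they do not say whether each array stands for its own animal. The p-values therefore cover only sample-to-sample spread, which may be technical, and 3 arrays a genotype bound the precision. Scnn1b encodes the beta subunit of the epithelial sodium channel, and the published transgenic line is known for driving it from a club cell promoter in the airways, a detail that the labels do not give. The stated aim of the series was a search for candidate genes of emphysema.

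Lysosomes are acidic organelles that break down material taken up by endocytosis, phagocytosis and autophagy. Their hydrolases work in a lumen acidified by the V-ATPase, a proton pump with a membrane sector (V0) and a catalytic cytoplasmic sector (V1), inside a membrane lined by glycosylated proteins such as LAMP1 and LAMP2. In the lung, lysosomes are prominent in alveolar macrophages, which clear inhaled matter and surfactant, and are related to the lamellar bodies in which alveolar type 2 cells store surfactant.

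Scnn1b itself had intensities of 1405, 1527 and 1333 on the Scnn1b-Tg arrays, against 172, 108 and 139 on the wild-type arrays (log2 fold change 3.37 ± 0.16 (SE), adjusted p = 0.00241 by limma, or 0.0559 without wild type replicate 3). Typical intensities were alike (array medians 47.6 to 48.5), with array minima of 18.3 to 18.6. Lung markers were bright in all samples, with Sftpc of alveolar type 2 cells at 7656 to 8534 in Scnn1b-Tg lung and 7241 to 8338 in wild-type lung, while Alb, Ins2 and Gfap, of tissues outside the lung, lay between 25.8 and 36.3 in Scnn1b-Tg lung and between 28.1 and 33.0 in wild-type lung. The same list held Myh6 of cardiac muscle, which was brighter and whose genotypes were separate. It lay at 63.5 to 87.5 in Scnn1b-Tg lung and 96.1 to 107.8 in wild-type lung. In a principal component analysis over all genes, wild type replicate 2 stood apart on the first component (16.3, the other arrays -8.91 to 5.46) and Scnn1b-Tg replicate 3 on the second (-13.3, the others -2.47 to 8.03), and counts below are also given without both.

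Lysosomal genes were more often higher than lower in Scnn1b-Tg lung, by small amounts. Of the 34 genes 25 had a positive log2 fold change and 9 a negative one, with a median of 0.08 and a range from -0.11 to 0.51, against a median of 0.0052 over all 19935 genes, of which 53.2% were positive. None of the 34 passed an adjusted p of 0.05 in limma, a threshold that 0.00502% of all genes (Scnn1b alone) passed. At an unadjusted p under 0.05, 10 of the 34 (29.4%) were higher, where the share over all genes was 3.96%, and 0 were lower, where it was 2.05%. The arrays of each genotype did not overlap for 11 of the 34, all higher in Scnn1b-Tg lung, where the share over all genes was 6.26%, while 0 were wholly lower, where it was 4.41%. Without wild type replicate 2 and Scnn1b-Tg replicate 3, 22 of the 34 were higher, 8 at an unadjusted p under 0.05 (4.14% of all genes in that fit), and the median was 0.053, against 0.0020 over all genes. The count at an unadjusted p under 0.05 was 6 without Scnn1b-Tg replicate 3 (3.90% of all genes) and 6 without wild type replicate 3 (3.46%). The 34 genes were chosen with earlier results of these data known, so these counts and shares are descriptive only. The plot of fold changes by role shows where the larger values lie.

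**Figure D1:**
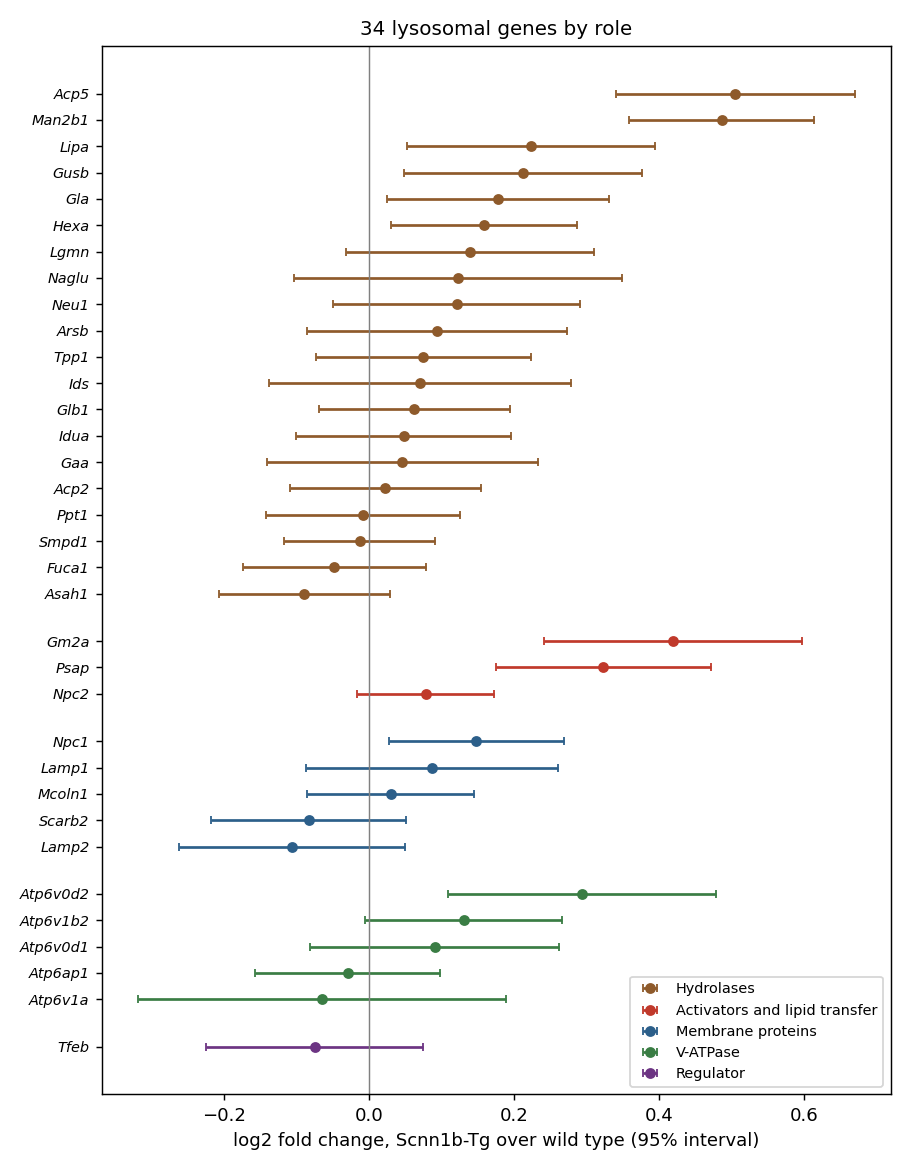
Log2 fold change (Scnn1b-Tg over wild type, x axis) of the 34 lysosomal genes, with the 95% interval of the limma fit, in blocks by role and in descending order within each block. The intervals of 10 genes lie wholly above 0, led by Acp5 (0.51) and Man2b1 (0.49), and none lies wholly below.

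Among the hydrolases, Man2b1 and Acp5 stood at the top. Man2b1, the lysosomal alpha-mannosidase that trims sugar chains from glycoproteins, had intensities of 363, 365 and 334 on the Scnn1b-Tg arrays, against 259, 243 and 256 on the wild-type arrays. The lowest transgenic array thus lay well above the highest wild-type array, and the spread within each genotype was small. The log2 fold change of 0.49 ± 0.05 (1.40-fold, adjusted p = 0.109 by limma) exceeded that of 99.64% of genes. Acp5, the tartrate-resistant acid phosphatase of osteoclasts and activated macrophages, had intensities of 145, 135 and 125 in Scnn1b-Tg lung, against 90.6, 93.7 and 101 in wild-type lung. Here too the genotypes were separate, with a log2 fold change of 0.51 ± 0.07 and an adjusted p of 0.146. When the 6645 dimmest genes were left out, limma called Man2b1 (adjusted p = 0.0225) and Acp5 (adjusted p = 0.0290), and a robust variance with an intensity trend called both as well (0.0239 and 0.0334). In the other alternatives their adjusted p-values were above 0.05, reaching 0.503 for Man2b1 and 0.506 for Acp5.

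The next hydrolases showed smaller differences. Lipa, the acid lipase that frees cholesterol and fatty acids from lipoprotein esters, had intensities of 438, 430.4 and 482 in Scnn1b-Tg lung, against 405, 399 and 353 in wild-type lung. Replicate 3 was the most distant in both genotypes, upward in Scnn1b-Tg and downward in wild type, and the genotypes did not overlap (log2 fold change 0.22 ± 0.07, adjusted p = 0.729). Gusb, the beta-glucuronidase of glycosaminoglycan breakdown, had 129, 135 and 136 in Scnn1b-Tg lung, against 126, 106 and 114 in wild-type lung. Wild type replicate 1 came close to the lowest transgenic array, and the log2 fold change was 0.21 ± 0.07 (adjusted p = 0.732), or 0.14 without wild type replicate 2 and Scnn1b-Tg replicate 3.

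A pair of hydrolases of glycolipid breakdown followed. Hexa, the alpha subunit of beta-hexosaminidase, which removes a sugar from ganglioside GM2, had 340.2, 326 and 315 in Scnn1b-Tg lung, against 285, 285 and 309 in wild-type lung (log2 fold change 0.16 ± 0.05, adjusted p = 0.757). Wild type replicate 3 lay just below the lowest transgenic array. Gla, the alpha-galactosidase whose loss causes Fabry disease, had 88.9, 99.3 and 99.2 in Scnn1b-Tg lung, against 88.7, 85.4 and 79.9 in wild-type lung (0.18 ± 0.06, adjusted p = 0.757). Gla's genotypes were parted by a narrow gap between Scnn1b-Tg replicate 1 and wild type replicate 1.

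The genotypes overlapped for the other 14 hydrolases. Positive log2 fold changes of 0.09 to 0.14 were found for Lgmn (0.14 ± 0.07), the asparaginyl endopeptidase legumain, Naglu (0.12 ± 0.10) of heparan sulfate breakdown, the sialidase Neu1 (0.12 ± 0.07) and the arylsulfatase Arsb (0.09 ± 0.08). Lgmn had 535, 539 and 565 in Scnn1b-Tg lung, against 552, 465 and 475 in wild-type lung, so that wild type replicate 1 lay within the transgenic range. Values of 0.02 to 0.07 were found for Tpp1, a peptidase, Ids and Idua, which act on dermatan and heparan sulfate, Glb1, the acid beta-galactosidase, Gaa, the glycogen-degrading alpha-glucosidase, and the phosphatase Acp2. Negative values were found for Asah1, the acid ceramidase (-0.09 ± 0.05), the fucosidase Fuca1 (-0.05 ± 0.05), the acid sphingomyelinase Smpd1 (-0.013 ± 0.044) and the thioesterase Ppt1 (-0.0080 ± 0.0565). The sign turned when 1 or more arrays were left out for Acp2, Gaa, Ids, Idua, Tpp1, Smpd1 and Ppt1, and for Acp2 with median centring as well. On Scnn1b-Tg replicate 3 the values of Arsb (77.6), Ids (161), Gaa (121) and Idua (89.2) were the highest of the 6 arrays, and without it their log2 fold changes were 0.015, -0.0089, -0.041 and -0.016.

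Of the 3 proteins that present lipids to these enzymes or carry them, all were higher with separate genotypes (6.26% of all genes). Of these 3, 2 were higher at an unadjusted p under 0.05 (3.96% of all genes). Psap encodes prosaposin, the precursor of the saposins, which lift sphingolipids out of membranes for their hydrolases. It had intensities of 2339.8, 2334 and 2249 in Scnn1b-Tg lung, against 1890.5, 1694 and 1958 in wild-type lung, with every transgenic array above every wild-type array (log2 fold change 0.32 ± 0.06, adjusted p = 0.275). Gm2a, the activator that hands ganglioside GM2 to the hexosaminidase containing Hexa, had 322, 299 and 289 in Scnn1b-Tg lung, against 245, 230.1 and 206 in wild-type lung. The genotypes were separate again, with a log2 fold change of 0.42 ± 0.08, or 1.34-fold, and an adjusted p of 0.225. Npc2, which carries cholesterol within the lumen, had 679, 677 and 665 in Scnn1b-Tg lung, against 632, 635 and 648 in wild-type lung. Its arrays were separate but the log2 fold change was 0.08 ± 0.04 with an unadjusted p of 0.092 in limma (adjusted p = 0.872). Without wild type replicate 2 and Scnn1b-Tg replicate 3, none of these 3 genes changed sign.

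Of 5 membrane proteins, 1 was higher at an unadjusted p under 0.05 (3.96% of all genes). Npc1, the membrane partner of Npc2 in cholesterol export, had intensities of 309, 308 and 339 in Scnn1b-Tg lung, against 289.5, 286 and 286 in wild-type lung. The wild-type arrays were nearly equal and all lay below the transgenic ones (log2 fold change 0.15 ± 0.05, adjusted p = 0.757). Lamp1, a main glycoprotein of the lysosomal membrane, gave 0.09 ± 0.07, and Mcoln1, the calcium channel TRPML1, gave 0.03 ± 0.05. Negative values were found for Lamp2, the receptor of chaperone-mediated autophagy (-0.11 ± 0.07), and for Scarb2, the sorting receptor of glucocerebrosidase (-0.08 ± 0.06). Lamp2 had 704, 713 and 658 in Scnn1b-Tg lung, against 694, 804 and 738 in wild-type lung, overlapping through wild type replicate 1.

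In the V-ATPase the 2 forms of the V0 d subunit were compared. Atp6v0d2, a d subunit found mainly in osteoclasts, macrophages and acid-secreting epithelial cells, had intensities of 189, 174 and 170.1 in Scnn1b-Tg lung, against 132, 158 and 145 in wild-type lung (log2 fold change 0.29 ± 0.08, adjusted p = 0.547). The genotypes did not overlap. Atp6v0d1, the d subunit present in most cells, had 236, 253 and 238 in Scnn1b-Tg lung, against 246, 206 and 233 in wild-type lung, so the genotypes overlapped (0.09 ± 0.07, adjusted p = 0.932). Leaving out wild type replicate 2 gave a log2 fold change of 0.02, and leaving out wild type replicate 1 gave 0.15. The log2 difference of Atp6v0d2 minus Atp6v0d1 was higher in Scnn1b-Tg by 0.20, with values from -0.55 to -0.32 in Scnn1b-Tg lung and from -0.90 to -0.38 in wild-type lung, and an exact two-sided permutation test gave p = 0.3, where the smallest p that 3 against 3 arrays allow is 0.1. Over single arrays left out this difference ran from 0.08 (without wild type replicate 1) to 0.34 (without wild type replicate 2). Among the subunits of the pump's V1 sector, Atp6v1b2, the B subunit of most cells, gave 0.13 ± 0.06 and Atp6v1a, the A subunit, -0.06 ± 0.11. Atp6v1a had 494, 501 and 391 in Scnn1b-Tg lung, against 482, 519 and 444 in wild-type lung, and its sign turned (0.05) without Scnn1b-Tg replicate 3. The accessory protein Atp6ap1 gave -0.03 ± 0.05, which turned to 0.02 without that array.

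**Figure D2:**
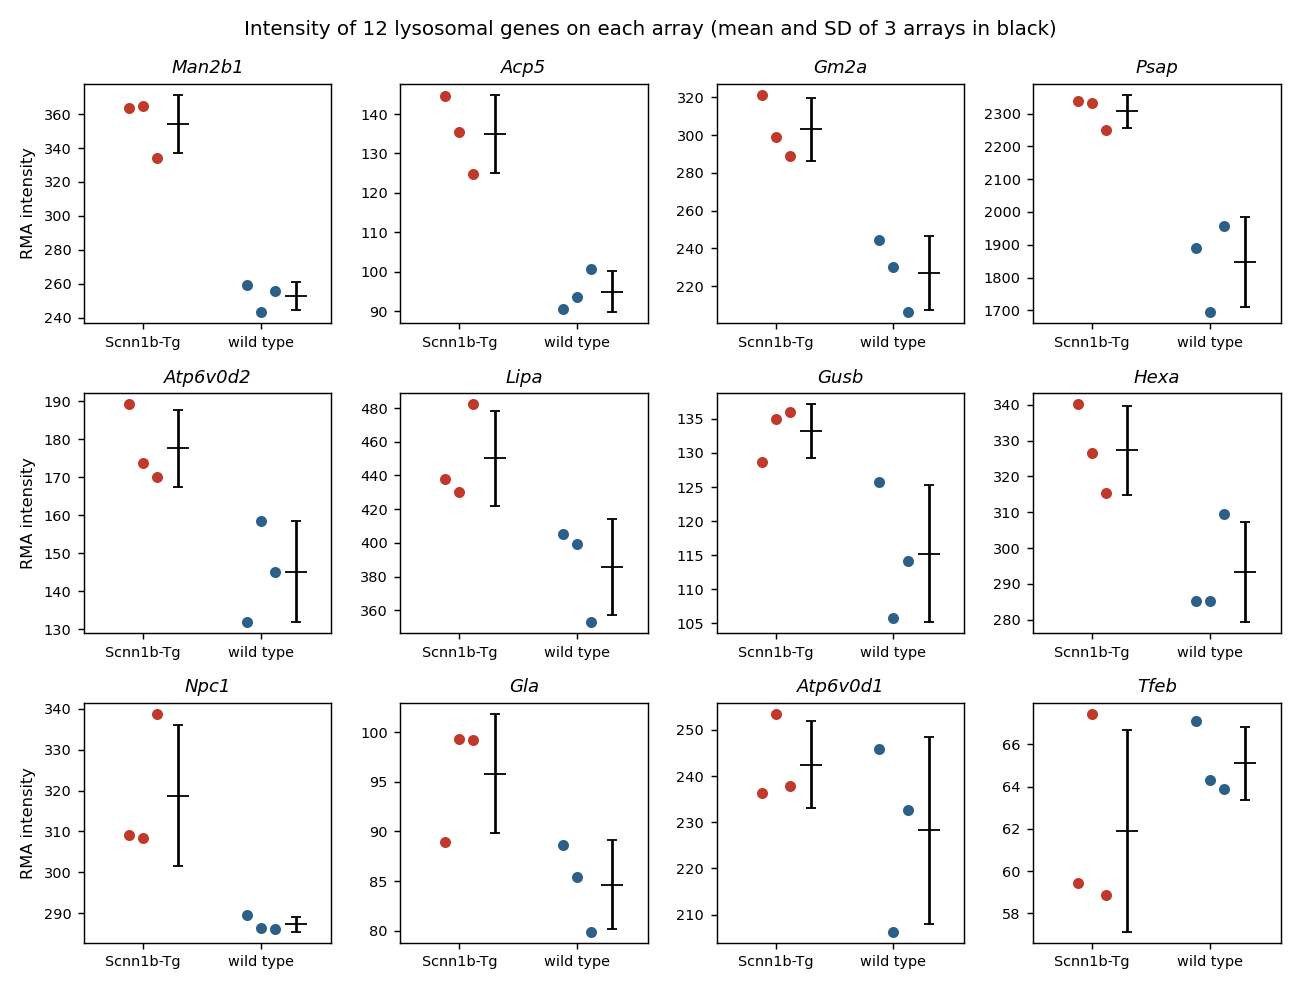
RMA intensity (y axis, a linear scale that does not start at 0 and differs between panels) on each of the 3 Scnn1b-Tg and 3 wild-type arrays, with the mean and SD of 3 arrays beside the points, for the 10 lysosomal genes with an unadjusted p under 0.05 and for Atp6v0d1 and Tfeb. The genotypes are separate in the first 10 panels, by a wide gap for Man2b1 and a narrow one for Gla, and overlap for Atp6v0d1 and Tfeb.

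Tfeb, a transcription factor that activates many lysosomal genes when it enters the nucleus, had intensities of 59.4, 67.4 and 58.9 in Scnn1b-Tg lung, against 67.1, 64.3 and 63.9 in wild-type lung. Scnn1b-Tg replicate 2 was the highest of all arrays and the other transgenic arrays the lowest, giving a log2 fold change of -0.08 ± 0.06 (adjusted p = 0.941), or -0.14 without Scnn1b-Tg replicate 2. Transcript levels do not report on the nuclear entry of this factor. Its relatives gave log2 fold changes of -0.04 ± 0.04 for Tfe3, 0.08 ± 0.06 for Mitf and 0.04 ± 0.09 for Tfec, each with overlapping genotypes.

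TFEB and its relatives bind a CACGTG core that is frequent near the start sites of lysosomal genes (the CLEAR element), and MITF is known to act on a TCATGTG site (the M-box) of the mouse Acp5 promoter. RefSeq promoter windows of the GRCm38.p6 build, from 250 bases before to 50 after each start site, were found for 30 of the 34 genes in 36 windows. CACGTG, a palindrome and therefore the same on both strands, stood in a window of 9 of these 30 genes (30.0%), against 8.09% of all 27025 genes with such windows. The extended form TCACGTGA, which contains it, stood in 4 of 30 (13.3%, against 1.12%), and TCATGTG on either strand in 5 of 30 (16.7%, against 4.31%). The 9 genes with CACGTG were Atp6v0d1, Atp6v1a, Gaa, Gla, Glb1, Lamp1, Lgmn, Mcoln1 and Naglu, with a median log2 fold change of 0.09 and a range from -0.06 to 0.18, and 1 of them, Gla, had an unadjusted p under 0.05. The 21 without it had a median of 0.07 and a range from -0.11 to 0.51, and 7 had an unadjusted p under 0.05, among them Man2b1, Acp5, Gm2a and Psap, where the share of all genes higher at that p was 3.96%. Lgmn was placed with the 9 by a match in 1 window, while another of its windows held none. The difference between the groups with and without CACGTG was not tested. A match is a stretch of letters and not a measured binding site.

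Stretches before the start site are shown for the hydrolases with the largest log2 fold changes and for genes with several motif copies, 5′ to 3′ in the direction of transcription, with the motifs in capitals. Man2b1 (chr8:85083019-85083268, plus strand, positions -250 to -1) holds none of the motifs. Acp5 (chr9:22130599-22130848, minus strand, positions -250 to -1 of the start site whose window has a match, 1 of 3 start sites) holds the M-box read on the opposite strand, beginning at -90. Gla (chrX:134601156-134601255, minus strand, the first 100 bases of the window) holds 2 copies of TCACGTGA with TCATGTG between them. Lamp1 (chr8:13159061-13159160, plus strand, -100 to -1) holds 4 copies of CACGTG, and Mcoln1 (chr8:3500419-3500518, plus strand, -100 to -1) holds CACGTG and, nearer the start site, TCACGTGA.
Man2b1: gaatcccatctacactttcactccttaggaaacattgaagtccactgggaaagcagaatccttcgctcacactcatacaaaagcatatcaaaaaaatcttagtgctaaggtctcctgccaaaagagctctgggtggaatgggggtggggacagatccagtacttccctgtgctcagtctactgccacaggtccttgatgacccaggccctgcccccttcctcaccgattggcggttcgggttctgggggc
Acp5: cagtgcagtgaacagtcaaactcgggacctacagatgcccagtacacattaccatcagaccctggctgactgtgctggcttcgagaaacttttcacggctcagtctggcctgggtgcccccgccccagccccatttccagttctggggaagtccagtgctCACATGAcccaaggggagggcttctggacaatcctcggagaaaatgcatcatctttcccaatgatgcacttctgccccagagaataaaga
Gla: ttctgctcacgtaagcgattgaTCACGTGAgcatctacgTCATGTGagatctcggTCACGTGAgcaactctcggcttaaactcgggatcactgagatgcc
Lamp1: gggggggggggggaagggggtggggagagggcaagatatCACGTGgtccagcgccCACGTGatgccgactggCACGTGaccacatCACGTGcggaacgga
Mcoln1: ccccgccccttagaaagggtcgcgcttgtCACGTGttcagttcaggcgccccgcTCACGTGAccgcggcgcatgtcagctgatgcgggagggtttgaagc

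Across arrays the 34 genes moved as follows. Their mean log2 deviation from each gene's own mean was 0.04, 0.05 and 0.06 on the Scnn1b-Tg arrays, against -0.05, -0.06 and -0.05 on the wild-type arrays, where the means over all genes lay between -0.0022 and 0.017 in Scnn1b-Tg and between -0.015 and -0.0013 in wild type. The number of genes above their own mean was 19, 21 and 25 of 34 on the Scnn1b-Tg arrays and 12, 8 and 12 on the wild-type arrays. By role, the hydrolases (0.04 to 0.09 in Scnn1b-Tg lung, -0.08 to -0.04 in wild-type lung) and the activators (0.10 to 0.18 in Scnn1b-Tg lung, -0.17 to -0.09 in wild-type lung) were separate. Membrane proteins (-0.02 to 0.04 in Scnn1b-Tg lung, -0.08 to 0.04 in wild-type lung) and the V-ATPase group (-0.03 to 0.09 in Scnn1b-Tg lung, -0.06 to -0.0073 in wild-type lung) overlapped.

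**Figure D3:**
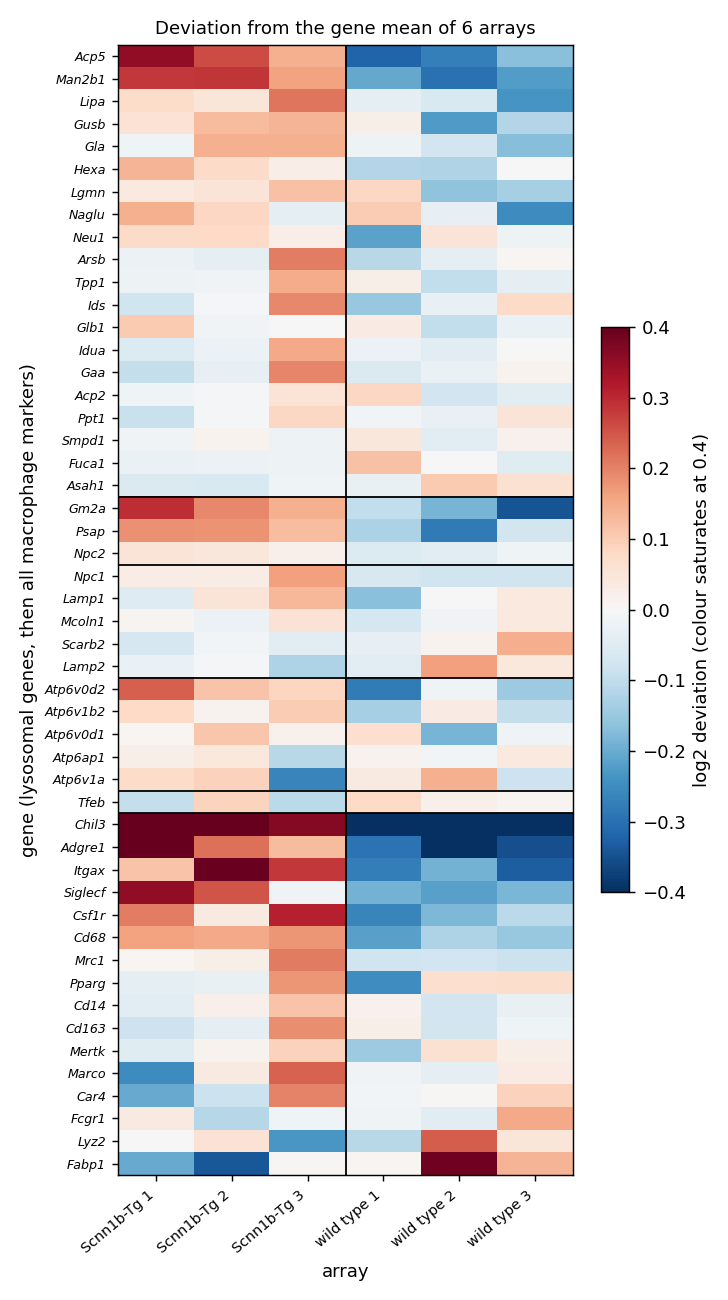
Log2 deviation of each gene from its mean over the 6 arrays (colour, saturating at 0.4), with the 3 Scnn1b-Tg arrays in the left columns and the 3 wild-type arrays in the right ones. Rows are the 34 lysosomal genes in blocks by role and, at the bottom, the 16 macrophage markers measured. Acp5, Man2b1, Gm2a, Psap, Lipa, Hexa, Npc1, Npc2 and Atp6v0d2 are above their mean on all transgenic arrays and below it on all wild-type arrays. The rest of the 34 lysosomal genes are not. Of the 16 markers, 6 show that pattern, while the other 10, Lyz2 and Marco among them, do not. Any gene with this pattern has separate genotypes, which 6.26% of all genes have with higher values in Scnn1b-Tg lung. The share of all genes with the pattern itself was not counted.

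Further genes of lysosomal function, from a list of enzymes, membrane proteins, pump subunits and sorting factors, were read for comparison. Of 71 measured, 0 passed the adjusted threshold, 4 were higher and 1 was lower at an unadjusted p under 0.05 (7.04% in all, where 6.01% of all genes passed in either direction), and 43 were positive with a median of 0.04. Without wild type replicate 2 and Scnn1b-Tg replicate 3 that median was 0.013. Of the higher genes Cd68 had the smallest p. It encodes the macrosialin glycoprotein of macrophage lysosomes and had intensities of 198, 197 and 200.3 in Scnn1b-Tg lung, against 152, 163 and 159.6 in wild-type lung (log2 fold change 0.33 ± 0.04, adjusted p = 0.139). It was followed by Laptm5, a lysosomal protein of leukocytes (0.44 ± 0.09, adjusted p = 0.327), and Ostm1, the partner of the lysosomal chloride transporter (0.15 ± 0.05, adjusted p = 0.742). Of the lower genes, those with the smallest p were Laptm4a, a widely expressed lysosomal membrane protein (-0.14 ± 0.04, adjusted p = 0.645), the amino acid transporter Slc38a9 (-0.10 ± 0.05, adjusted p = 0.830), which turned to 0.0079 with the mean over its probe sets, and the Ragulator subunit Lamtor5 (-0.14 ± 0.08, adjusted p = 0.892). The other 17 V-ATPase subunits measured held 0 genes at an unadjusted p under 0.05 and ran from -0.09 to 0.13. Of 5 cathepsins, the lysosomal proteases, chosen with earlier results known, 4 were higher at an unadjusted p under 0.05 (3.96% of all genes), namely Ctsk (0.62 ± 0.13), Ctss (0.47 ± 0.08), Ctsb (0.22 ± 0.05) and Ctsd (0.20 ± 0.06), with adjusted p-values from 0.187 to 0.580, while Ctsl gave -0.06 ± 0.06.

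**Figure D4:**
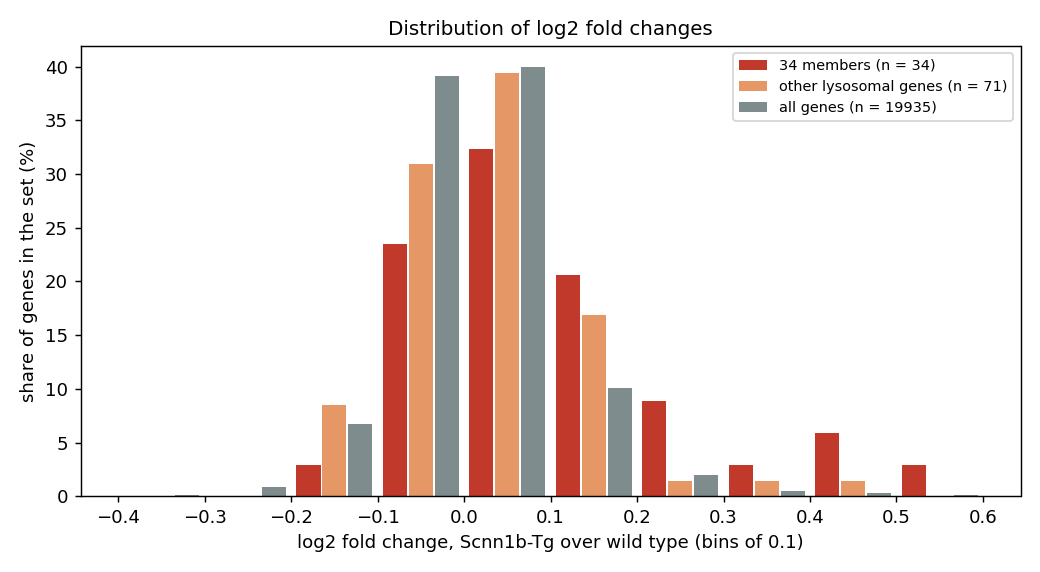
Share of genes (y axis, %) by log2 fold change (Scnn1b-Tg over wild type, x axis, bins of 0.1) for the 34 lysosomal genes, the 71 other lysosomal genes and all 19935 genes, of which 63 lie outside the plotted range. The 34 genes reach further to the right, with 4 genes between 0.3 and 0.6, and the other lysosomal genes lie closer to the distribution of all genes.

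In whole lung, more cells of a type and more RNA per cell cannot be told apart, so markers of cell types rich in lysosomes were read beside these values. Of 8 alveolar macrophage markers measured 6 were higher, and their summed intensity was 3029.5 to 3717 in Scnn1b-Tg lung and 1690.3 to 2046 in wild-type lung. Without Chil3 the other 7 summed to 910.5 to 1084 in Scnn1b-Tg lung and 902 to 950.5 in wild-type lung, which overlap. Car4, counted among the endothelial markers as well, was the brightest of these 7 on every array, and its genotypes overlapped. This sum therefore leans on Car4, and its overlap does not show that Chil3 alone made up the gap. Besides Chil3, the genotypes were separate with higher values in Scnn1b-Tg lung for Itgax, Siglecf and Mrc1 (6.26% of all genes). They were separate the other way (4.41% of all genes) for Fabp1, narrowly, at 25.4 to 32.17 in Scnn1b-Tg lung and 32.19 to 42.0 in wild-type lung. The higher markers of the 8 included Chil3, a chitinase-like protein (log2 fold change 1.34 ± 0.19), and Itgax, the CD11c integrin (0.53 ± 0.08). Siglecf gave 0.39 ± 0.09 and Mrc1, the mannose receptor, 0.16 ± 0.06. Marco (0.01 ± 0.12) and Pparg (0.07 ± 0.10) did not differ beyond their errors, and Fabp1 gave -0.36 ± 0.12. Of 8 general macrophage markers, 3 were higher at an unadjusted p under 0.05 (3.96% of all genes), namely Adgre1 (0.76 ± 0.17), Csf1r (0.37 ± 0.08) and Cd68. Mertk (0.04 ± 0.07), Cd14 (0.06 ± 0.06) and Cd163 (0.05 ± 0.08) were positive within about their error, and Fcgr1 (-0.06 ± 0.07) was negative. Their summed intensity, Lyz2 included, overlapped (3782 to 4368 in Scnn1b-Tg lung, 3854 to 4755 in wild-type lung), with Lyz2, a lysozyme shared with alveolar type 2 cells, at 2899 to 3543 in Scnn1b-Tg lung and 3156 to 4030.2 in wild-type lung. Without Lyz2 the other 7 summed to 825 to 896 in Scnn1b-Tg lung and 698 to 742 in wild-type lung. The part of macrophage number in the lysosomal values was not tested.

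Markers of osteoclasts and multinucleated macrophages, which Acp5 and Atp6v0d2 are among, were higher for 7 of 10. Their summed intensity was 823 to 917 in Scnn1b-Tg lung and 685 to 744 in wild-type lung. That sum holds Acp5 and Atp6v0d2 themselves, so it is not independent of the lysosomal values. Without Ctsk the remaining 9, Acp5 and Atp6v0d2 among them, summed to 677 to 741 in Scnn1b-Tg lung and 577 to 641 in wild-type lung. Besides Acp5 and Atp6v0d2, Ctsk and Mmp9 (0.30 ± 0.08) were higher at an unadjusted p under 0.05 (3.96% of all genes). The genotypes overlapped for the rest, namely Ocstamp, Oscar, Itgb3, Nfatc1, Dcstamp and Calcr. The fusion receptor gene Dcstamp (22.5 to 25.9 in Scnn1b-Tg lung, 24.1 to 24.5 in wild-type lung) and Calcr (25.4 to 28.3 in Scnn1b-Tg lung, 26.8 to 28.1 in wild-type lung) lay near the lowest intensities of the arrays. Eosinophil markers, Siglecf counted here as well, were higher for 5 of 5, with a summed intensity of 252 to 430.1 in Scnn1b-Tg lung and 204 to 213 in wild-type lung. Ccr3 had 199, 133 and 74.4 in Scnn1b-Tg lung, against 50.9, 42.9 and 48.5 in wild-type lung, with wide spread among the transgenic arrays. Of 6 neutrophil markers 1, Retnlg (1.38 ± 0.35), was higher at an unadjusted p under 0.05 (3.96% of all genes). The 6 summed to 533 to 796 in Scnn1b-Tg lung and 324 to 455 in wild-type lung, but without Retnlg the other 5 overlapped (229.6 to 287 in Scnn1b-Tg lung, 229.9 to 266 in wild-type lung), with the calgranulins S100a8 and S100a9 at -0.08 ± 0.12 and 0.04 ± 0.14.

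Epithelial cells that secrete acid also use Atp6v0d2. Of 8 genes of such ionocyte-like cells 5 were higher, Slc26a4 (pendrin) the most at 1.49 ± 0.25, but their factors Foxi1 (28.7 to 30.3 in Scnn1b-Tg lung, 29.4 to 30.7 in wild-type lung) and Ascl3 (24.1 to 24.7 in Scnn1b-Tg lung, 24.0 to 25.3 in wild-type lung) were dim and overlapped. The summed intensity of the 8 was 579 to 627 in Scnn1b-Tg lung and 494 to 529.9 in wild-type lung. Without Slc26a4 the other 7, Atp6v0d2 among them, overlapped (504 to 513 in Scnn1b-Tg lung, 445 to 504 in wild-type lung). Atp6v0d2 is itself 1 of the 5 higher genes and is in both sums, so these are not independent of the lysosomal values. Of 7 epithelial markers 5 were higher and 2 lower (summed 19771 to 21022 in Scnn1b-Tg lung, 19917 to 21988 in wild-type lung), with Scgb1a1 of club cells at -0.31 ± 0.07. All 5 endothelial markers were lower (summed 3699 to 4128 in Scnn1b-Tg lung, 3895 to 4198 in wild-type lung), none at an unadjusted p under 0.05 (2.05% of all genes). Myh6, a cardiac muscle myosin, had 63.5 to 87.5 in Scnn1b-Tg lung, against 96.1 to 108 in wild-type lung (-0.42 ± 0.11, adjusted p = 0.561). The part of these cells in the lysosomal values was not tested.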

How the data were processed

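The intensities are the authors' deposited RMA values per probe set, on a linear scale with 1 column per sample; RMA is named in the submitters' processing notes, without version or settings. RNA was extracted with Trizol and labelled for Affymetrix whole-transcript arrays, per the labels' protocols. GEO's platform annotation pairs 21780 of the 28815 probe sets with exactly 1 gene symbol, and these were used; 1605 with several symbols and 5430 it does not list were left out. For the 998 genes with more than 1 such probe set (Arsb among the 34) the brightest by mean log2 over the 6 arrays was used.

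R 4.3.3 with limma 3.58.1 (lmFit, eBayes) compared log2 values between genotypes with no covariate, on 4 residual degrees of freedom (6.99 after moderation). Two-sided p-values were adjusted by Benjamini-Hochberg across the 19935 genes, with a threshold of 0.05. Errors in the text are standard errors of this fit unless named SD. The fit was also run on simulated data with independent normal noise, which says nothing about the genes reported here. The genes, lists and alternatives were chosen with earlier results of these data known. Values on every array are given for genes with an unadjusted p under 0.05, for Atp6v0d1 and for Tfeb; of the other lysosomal genes, the 3 smallest p-values in each direction are named. Array values of Npc2, Lgmn, Lamp2, Atp6v1a, Arsb, Ids, Gaa and Idua, the cell type markers singled out by name, the marker sums without 1 gene and the promoter stretches shown were chosen after values were seen. The 15 alternatives were quantile normalization, median centring, the 6645 dimmest genes left out, the mean over probe sets, 16 subtracted from every intensity, array weights, a robust variance with an intensity trend, a replicate block, each array left out, and 2 arrays left out together. Promoter windows are RefSeq's (GRCm38.p6).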

Additional observations from a re-analysis of the deposited data

How the results depend on the processing

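No lysosomal gene passed the threshold in 13 of 15 alternatives, and 2 (Man2b1 and Acp5) did once the dimmest genes were dropped (a filter that also called Chil3, Itgax and Slc26a4), as did 2 under a robust variance with an intensity trend. The number of genes called over the whole table, 1 as reported, was 39 and 36 in those fits, 23 with 16 subtracted, 6 without wild type replicate 2 and Scnn1b-Tg replicate 3, and 0 to 5 over single arrays left out. With a replicate block it was 3. Same-numbered arrays deviated with correlations of 0.0257 to 0.0395. Differently numbered arrays were not compared, so these correlations cannot tell whether the numbers pair the samples. The median over the 34 genes was 0.057 with median centring, which moved the median of all genes to -0.020 (0.0052 as reported), 0.057 with array weights, 0.053 without both arrays and 0.063 to 0.11 over single arrays left out. The sign held in all 15 alternatives for 25 of the 34 genes. Without both arrays it turned for Acp2 (-0.032), Atp6ap1 (0.0059), Atp6v1a (0.11), Gaa (-0.042), Ids (-0.0070), Idua (-0.027) and Tpp1 (-0.011). It also turned for Acp2 with median centring (-0.0032), where all genes shifted down by more than its reported value, Atp6v1a with array weights (0.022) and Slc38a9 with the mean over probe sets (0.0079). Over single arrays left out the ranges were -0.011 to 0.070 for Acp2, -0.058 to 0.018 for Atp6ap1, -0.13 to 0.051 for Atp6v1a, -0.041 to 0.11 for Gaa, -0.0089 to 0.13 for Ids, -0.016 to 0.088 for Idua, -0.051 to 0.034 for Ppt1 and -0.039 to 0.0064 for Smpd1. The cause of these changes was not tested. If a constant was added to the deposited values, fold changes of dim genes are understated.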
